A study of Homo sapiens with 9 samples.

Results

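The genes described here are 40 listed cytokines, chemokines, their receptors and genes of the NF-kB pathway, out of 60660 genes in the count matrix of OVCAR3 cells. They were taken by symbol, with no cut on a measured value, from a list written with earlier results of these data known, and each of the 40 was found in the matrix. OVCAR3 is a cell line from high-grade serous ovarian cancer, and the study asked which genes respond when CTCFL (also called BORIS), a testis-specific relative of the insulator protein CTCF, is raised or lowered in it. RNA-seq was done on 9 libraries in 3 groups of 3 biological replicates, each pooled from 3 technical replicates. CTCFL-OE cells were transiently transfected with 2 µg of pCpGfree-vitroHBORIS, a plasmid with the coding sequence of CTCFL, and were harvested after 48 h. Control cells carried the pCpGfree-vitroHLacZ plasmid, at the same dose and harvest time, per the study's methods, while their label for the CTCFL treatment reads None. CTCFL-KD cells had CTCFL lowered with siRNA, and per the study's methods their RNA came from knockdown experiments published earlier. No harvest time was recorded for them in the sample annotation used here. No group with a control siRNA was analysed either. The knockdown, the difference in handling between siRNA and plasmid, and the earlier experiments as such therefore cannot be told apart. All groups share the OVCAR3 background and its growth medium, and they are 1 cell line, so the replicates are independent cultures and not donors.

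CTCFL itself was counted at 6, 9 and 10 reads in Control, at 36, 34 and 72 in CTCFL-OE and at 0, 1 and 0 in CTCFL-KD, an order that goes with the labels, although reads of the plasmid and of the endogenous gene cannot be separated in it. Total counts ranged from 14332622 to 24490080 per library, so that 3 counts, the limit that a count of 0 allows for counting error alone, stood for 0.116 to 0.27 CPM (read counts relative to library size, after TMM scaling). The share of mitochondrial reads was 6.16% to 6.52% in Control, 7.40% to 14.9% in CTCFL-OE and 7.80% to 11.8% in CTCFL-KD. CTCFL-KD replicate 1 stood apart, with the smallest TMM factor (0.775). The deviation of each library from the mean of the other replicates of its group was also set against transcript length. The Spearman correlation was -0.67 for CTCFL-KD replicate 1, against 0.64 and 0.63 for the other 2 CTCFL-KD libraries, whose reference includes replicate 1. The 12 ovarian epithelial markers (among them PAX8, WT1, MUC16 and EPCAM) were all detected, and their summed level was 5580 to 5673 CPM in Control, 5140 to 5304 in CTCFL-OE and 9916 to 16368 in CTCFL-KD. In CTCFL-KD, by the rule given further on, 7 of the 12, among them KRT8, KRT18 and MUC16, were called higher and 1, KRT7, was called lower (log2 fold change -1.12, adjusted p = 0.0164), beside 15.3% higher and 7.94% lower over all genes tested. The call of KRT7 was lost without CTCFL-KD replicate 2 or 3 and that of EPCAM without CTCFL-KD replicate 1. Of 18 leukocyte markers, 7 were at 0 in each Control library (CD3D, CD3E, CD2, MS4A1, CD68, FCGR3A and CD163), and their summed level was 0.8 to 1.09 CPM in Control, 1.09 to 2.21 in CTCFL-OE and 3.23 to 4.86 in CTCFL-KD, where CD14 was called higher. The 10 fibroblast markers summed to 27.7 to 33.7 CPM in Control, 24.9 to 43.9 in CTCFL-OE and 37 to 42.1 in CTCFL-KD, and among them COL1A2 was at 0 in every Control library and at 14, 14.2 and 13.5 CPM in CTCFL-KD, where it was called higher. The part of these differences in the results below was not tested.

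NF-kB is a family of dimeric transcription factors built from p65 (RELA), RELB, c-Rel (REL), p50 (from NFKB1) and p52 (from NFKB2), which inhibitors of the IkB family hold in the cytoplasm until a signal such as TNF or IL-1 releases them. In the nucleus the dimers bind kB sites near inflammatory genes, among them chemokines such as CXCL8 and cytokines such as IL6, and they also switch on their own inhibitors, so that the response limits itself. In ovarian cancer, tumour cells secrete many of these cytokines and chemokines themselves.

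Because many of the listed genes are textbook NF-kB targets, the 300-base promoter windows of RefSeq (GRCh38.p14, 250 bases before to 50 after each annotated start) were read for exact matches of the kB consensus on either strand. Of the 40 genes, 31 had a window, and 16 of these held a match. Over windows, 17 of 44 held one (38.6%), against 11.3% of all 35116 windows. The stretches below are a selection, chosen after the values were seen, of genes of several roles that were called in CTCFL-KD, so that a reader can set the letters beside the values. Those of IL32 and NFKB2, which were also called, are not printed. Each is printed 5′ to 3′ on the strand of its gene, with the match or overlapping matches in capitals and the flanks in lower case.
CXCL1, chr4:73869294-73869344, plus strand: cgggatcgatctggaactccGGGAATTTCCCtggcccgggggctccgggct
CXCL2, chr4:74099243-74099293, minus strand: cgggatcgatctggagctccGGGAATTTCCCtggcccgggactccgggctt
CXCL3, chr4:74038738-74038788, minus strand: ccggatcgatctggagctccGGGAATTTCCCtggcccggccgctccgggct
CCL20, chr2:227813743-227813792, plus strand: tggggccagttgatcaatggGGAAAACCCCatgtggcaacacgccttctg
IL6, chr7:22727107-22727156, plus strand: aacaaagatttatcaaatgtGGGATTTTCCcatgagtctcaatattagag
TNFAIP3, chr6:137867172-137867233, plus strand: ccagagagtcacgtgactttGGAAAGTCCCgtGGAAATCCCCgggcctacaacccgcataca
NFKBIA, chr14:35404801-35404850, minus strand: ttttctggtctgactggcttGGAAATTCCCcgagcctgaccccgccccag
NFKB1, chr4:102501290-102501339, plus strand: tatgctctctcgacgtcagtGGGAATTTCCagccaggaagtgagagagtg
BIRC3, chr11:102317265-102317378, plus strand: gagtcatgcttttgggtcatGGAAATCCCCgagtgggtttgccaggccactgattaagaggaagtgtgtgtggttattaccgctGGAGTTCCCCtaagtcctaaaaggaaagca
IL12A, chr3:159988771-159988820, plus strand: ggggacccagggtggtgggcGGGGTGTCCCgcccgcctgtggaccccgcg

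The same run of letters stood in the windows of CXCL1, CXCL2 and CXCL3 and also in that of CXCL5. In CXCL1, CXCL2 and CXCL3 the last match began 78, 77 and 78 bases before the annotated start. The match began 79 bases before the start in CCL20, 73 in IL6, 81 in NFKBIA, 49 in NFKB1 and 44 in IL12A. Matches were also found in the windows of CXCL5, IL32, IL4R, IL6ST, REL and NFKB2. The windows of CXCL8, TNF, TNFAIP2, IL7R, OSMR and IL11, which were called lower in CTCFL-KD, held none. A match is a description of the letters and not a measured binding site.

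The study also listed predicted CTCFL sites in promoters, 2 of them in front of genes described here. The letters of the listed sites were found on GRCh38 1 base before the listed position, and they are shown in capitals because IL12A and CXCL8 are the listed genes with such a site.
IL12A, chr3:159988677-159988750, plus strand: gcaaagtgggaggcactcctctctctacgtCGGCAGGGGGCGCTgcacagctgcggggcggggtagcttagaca
CXCL8, chr4:73740021-73740088, plus strand: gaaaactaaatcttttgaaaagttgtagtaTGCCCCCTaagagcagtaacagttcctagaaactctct
The site of IL12A ended 115 bases before the annotated start of the gene and did not overlap its kB match. The site of CXCL8, which reads in the listed orientation on the minus strand, ended 461 bases before the start of the gene. The study reports that the IL12A site matched a ChIP-seq peak in public data on CTCFL and CTCF from another ovarian cancer cell line. It does not name CXCL8 among the genes with such a peak. Neither sequence is itself a measurement of CTCFL binding in these cells.

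In Control cells the listed genes spanned a wide range of levels. On a scale per transcript length (counts per kilobase as a share of their sum, in TPM), TNFAIP2 had the highest level of the 40, 350 ± 7.45 (SD, n = 3). Next came NFKBIA at 244 ± 7.08, CXCL1 at 190 ± 5.19, the IL-1 receptor IL1R1 at 122 ± 4.07, NFKB2 at 95.9 ± 2.03 and IL18 at 82.1 ± 0.79, and none of these neighbours overlapped over the 3 libraries. CXCL8 at 43.2 ± 1.67 and CCL28 at 42.6 ± 1.24 did not differ beyond their spread. TNF stood at 8.44 ± 0.349, IL6 at 5.83 ± 0.162, IL7R at 3.99 ± 0.0994 and IL12A at 2.76 ± 0.802 on the same scale. At the low end, IL1A, IL1B, IL1RN, CXCL5 and CSF2 had too few counts to be tested. IL1A had 10 to 13 counts per Control library, 7 to 12 in CTCFL-OE and 4 to 6 in CTCFL-KD, and IL1RN had 7 to 12, 2 to 5 and 0 to 6. IL1B, CXCL5 and CSF2 had at most 2 counts in any library. The plot of levels shows all 40 genes by library.

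**Figure D1:**
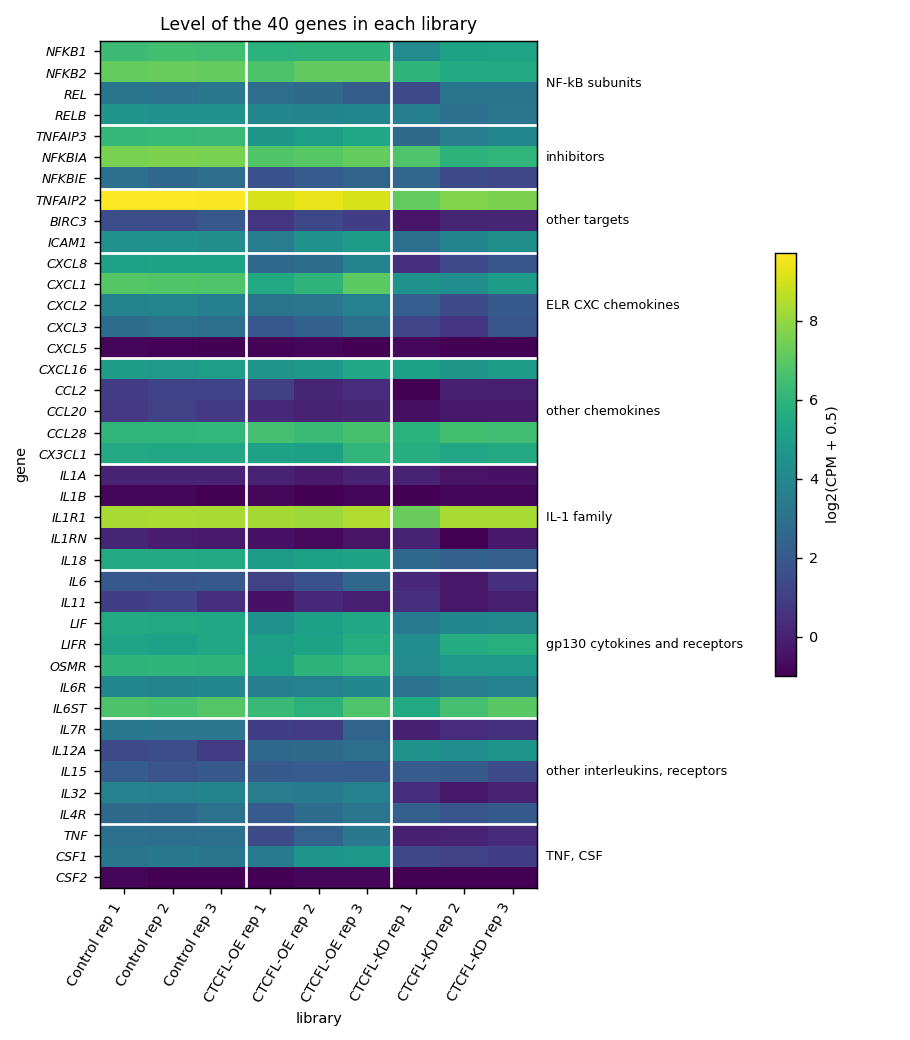
Level of each of the 40 genes, as log2(CPM + 0.5), in each of the 9 libraries, with genes in rows grouped by role and libraries in columns grouped by condition. TNFAIP2 and IL1R1 are the brightest rows, and the rows of CXCL8, TNF, IL32, IL18 and TNFAIP3 darken in the 3 CTCFL-KD columns while that of IL12A brightens.

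Most of the list differed between CTCFL-KD and Control. In CTCFL-KD against Control, 23 genes fell and 1, IL12A, rose, out of 35 tested. A gene was called where edgeR's quasi-likelihood test, adjusted by Benjamini-Hochberg over all 17794 genes tested, gave an adjusted p under 0.05 and the log2 fold change was over 1 in size. By the same rule 7.94% of all genes tested were lower and 15.3% higher. The median log2 fold change of the listed genes was -1.47, against 0.08 over all genes tested, and 30 of the 35 were negative. For 25 of the 35, all CTCFL-KD libraries were lower than all Control libraries, against 27.6% of all genes tested. In bulk RNA, fewer expressing cells and less RNA per cell cannot be told apart. Some listed genes, such as IL32 and TNF, pass the low-count filter through the groups in which they are high, so these counts and medians are a description.

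In CTCFL-OE against Control, 4 genes fell (CXCL8, IL7R, TNFAIP3 and CCL20) and 2 rose (IL12A and CSF1), with the study's looser adjusted p under 0.1 and the same fold threshold. By this rule 0.702% of all genes tested were lower and 1.37% higher. The median log2 fold change of the listed genes was -0.42, against -0.01 over all genes tested. For 14 of the 35, all CTCFL-OE libraries were lower than all Control libraries, against 20.8% of all genes tested. These calls depended on single libraries. Without any 1 of the 3 Control libraries, or without CTCFL-OE replicate 2, IL12A was the only gene of the list still called, while the number called in CTCFL-KD stayed between 22 and 25 when any library was left out. Without CTCFL-OE replicate 3 the number called in CTCFL-OE was 3, and without CTCFL-KD replicate 2 it was also 3.

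All 6 genes called in CTCFL-OE were called in CTCFL-KD too, 4 lower in both, IL12A higher in both, and CSF1 in opposite directions. Both comparisons use the same Control libraries, so the 2 sets of calls are not independent of each other. IL7R, IL12A and CXCL8 were named by the study on these samples, and their directions are not independent evidence. The plot of fold changes gives both comparisons side by side.

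**Figure D2:**
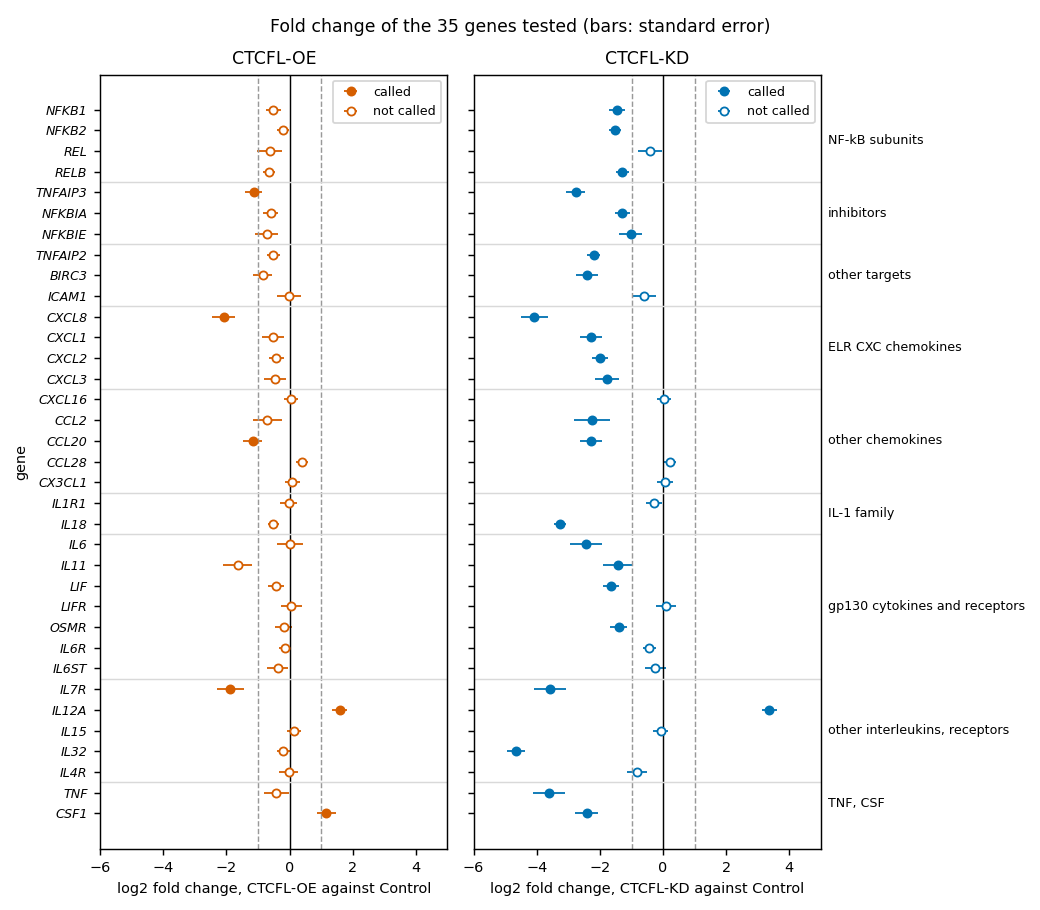
Log2 fold change against Control (points) with its standard error (bars) for the 35 genes tested, in CTCFL-OE (left) and CTCFL-KD (right), with filled points for genes called, open points for the others and dashed lines at a log2 fold change of 1 in either direction. In CTCFL-KD the filled points lie left of the dashed line except that of IL12A at 3.37, and in CTCFL-OE 6 points are filled, from CXCL8 at -2.09 to IL12A at 1.59.

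Among the 4 NF-kB subunits of the list, NFKB1, NFKB2 and RELB fell in CTCFL-KD and REL did not pass the test. NFKB1, which encodes p105 and its product p50, stood at 80.8, 87.5 and 85.3 CPM in Control, at 56.9, 59.9 and 61 in CTCFL-OE and at 17.6, 35.9 and 37.9 in CTCFL-KD. Its log2 fold change was -1.47 ± 0.25 (SE) in CTCFL-KD (edgeR, adjusted p = 0.00127), and the 3 groups did not overlap. NFKB2, the precursor of p52 in the non-canonical branch, stood at 147, 148 and 144 CPM in Control, at 105, 139 and 137 in CTCFL-OE and at 62.6, 46.2 and 45.4 in CTCFL-KD, a 2.85-fold lower level in CTCFL-KD (adjusted p = 1.9e-04). RELB, the partner of p52, had 23.9, 21.5 and 22.3 CPM in Control, then 14.5, 13.8 and 14.6 in CTCFL-OE, then 11.9, 7.12 and 8.8 in CTCFL-KD, with a log2 fold change of -1.29 ± 0.20 in CTCFL-KD (adjusted p = 6.1e-04). The CTCFL-OE libraries of these 3 genes lay between the other 2 groups without overlap. RELA, which encodes p65 and is not in the list, was added after its values were seen, with 104, 97 and 108 CPM in Control, then 85.5, 79.3 and 75.7 in CTCFL-OE, then 63.4, 75.6 and 74.9 in CTCFL-KD. It was not called in either comparison (log2 fold change -0.36 ± 0.16, adjusted p = 0.263 in CTCFL-OE; -0.53 ± 0.16, adjusted p = 0.0209 in CTCFL-KD, under the fold threshold). None of the 4 listed subunits was called in CTCFL-OE by edgeR or by DESeq2, 1 (RELB) having an unadjusted p under 0.05. REL, which encodes c-Rel, ranged from 7.91 to 9.25 CPM in Control and from 3.93 to 6.56 in CTCFL-OE, while in CTCFL-KD replicate 1 was at 2.16 and the other 2 libraries at 8.43 and 8.42, so that its CTCFL-KD libraries overlapped Control.

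All 3 inhibitors of the pathway in the list fell in CTCFL-KD. TNFAIP3 encodes A20, a ubiquitin-editing enzyme that shuts off signalling above the IKK complex. It stood at 70.1, 71.8 and 75.9 CPM in Control, at 25, 32.2 and 41.8 in CTCFL-OE and at 6.03, 11.2 and 14.5 in CTCFL-KD, and no library of one group reached the level of another. The log2 fold change of TNFAIP3 was -1.14 ± 0.28 in CTCFL-OE (adjusted p = 0.0816) and -2.77 ± 0.30 in CTCFL-KD (adjusted p = 7.8e-05). Its call in CTCFL-OE was lost without any 1 of the 6 Control and CTCFL-OE libraries, with adjusted p from 0.0916 to 0.315 and a log2 fold change from -1.35 to -0.98.

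NFKBIA encodes IkB-alpha, the inhibitor that NF-kB itself induces, and its promoter holds the kB match shown above. Its level was 191, 196 and 189 CPM in Control, then 113, 123 and 144 in CTCFL-OE, then 109, 60.7 and 66.9 in CTCFL-KD, where the log2 fold change was -1.29 ± 0.23 (adjusted p = 0.00158). NFKBIE, which encodes IkB-epsilon, had 7.05, 5.55 and 6.67 CPM in Control, then 2.78, 3.86 and 5.03 in CTCFL-OE, then 5.4, 2.26 and 2.02 in CTCFL-KD. For both inhibitors CTCFL-KD replicate 1 was the highest of its group and close to the lower CTCFL-OE or Control values. The change of NFKBIE passed narrowly (log2 fold change -1.03 ± 0.36, adjusted p = 0.0436). Without CTCFL-KD replicate 1 the NFKBIE value was -1.58 (adjusted p = 0.00082), and its call was lost without CTCFL-KD replicate 2, CTCFL-KD replicate 3 or any 1 Control library, where the adjusted p reached 0.128.

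Of the other targets in the list, TNFAIP2 and BIRC3 fell in CTCFL-KD. TNFAIP2, a gene first known for its induction by TNF, was at 846, 833 and 805 CPM in Control, at 547, 659 and 532 in CTCFL-OE and at 140, 209 and 193 in CTCFL-KD, 4.59-fold lower in CTCFL-KD (log2 fold change -2.20 ± 0.21, adjusted p = 3.4e-05). BIRC3, which encodes the apoptosis inhibitor cIAP2, was sparse, at 2.5, 2.48 and 3.24 CPM in Control, then 1.05, 2.03 and 1.47 in CTCFL-OE, then 0.27, 0.594 and 0.602 in CTCFL-KD, the last from 3, 10 and 11 counts. The difference of BIRC3 in CTCFL-KD was -2.41 ± 0.36 on the log2 scale (adjusted p = 5.2e-04). ICAM1, an adhesion molecule for leukocytes, was at 19.1 to 21.8 CPM in Control, 10.7 to 29.1 in CTCFL-OE and 6.84 to 19.9 in CTCFL-KD and was not called. In CTCFL-OE none of the 3 was called by edgeR or DESeq2, and TNFAIP2 and BIRC3 had an unadjusted p under 0.05.

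The ELR CXC chemokines, which draw neutrophils through CXCR1 and CXCR2, lie in 1 cluster on chromosome 4 between 73740519 and 74099196 (GRCh38), in which CXCL8 is the first and CXCL2 the last of the listed genes. All 4 of them that could be tested fell in CTCFL-KD, and 1 of the 4, CXCL8, fell in CTCFL-OE. CXCL8, which encodes interleukin-8, stood at 34.9, 35.9 and 36.8 CPM in Control, at 5.69, 6.42 and 13.3 in CTCFL-OE and at 0.9, 2.08 and 3.12 in CTCFL-KD. The groups were in steps without overlap, from 698 or more counts per Control library to 10, 35 and 57 in CTCFL-KD. Against Control, CXCL8 was 4.25-fold lower in CTCFL-OE (log2 fold change -2.09 ± 0.37, adjusted p = 0.0286) and 17-fold lower in CTCFL-KD (log2 fold change -4.08 ± 0.42, adjusted p = 4.9e-05). Leaving out any 1 Control library or CTCFL-OE replicate 2 ended the CTCFL-OE call of CXCL8, at an adjusted p of up to 0.169. Over all 6 fits with a Control or CTCFL-OE library left out, its log2 fold change ran from -2.57 to -1.87.

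CXCL1 had 117, 113 and 109 CPM in Control, then 44.6, 62.2 and 129 in CTCFL-OE, then 22.1, 18.5 and 29.8 in CTCFL-KD (log2 fold change -2.27 ± 0.35 in CTCFL-KD, adjusted p = 7.0e-04). In CTCFL-OE its replicate 3 was above all Control libraries while the other 2 were below them. CXCL2 had 13.5, 14.1 and 11.9 CPM in Control, then 8.24, 8.77 and 12.6 in CTCFL-OE, then 4.05, 2.26 and 3.66 in CTCFL-KD (log2 fold change -1.99 ± 0.26 in CTCFL-KD, adjusted p = 2.2e-04). CXCL3 had 6.35, 7.45 and 6.88 CPM in Control, then 3.28, 4.49 and 7.24 in CTCFL-OE, then 1.89, 1.01 and 3.01 in CTCFL-KD (log2 fold change -1.79 ± 0.38, adjusted p = 0.00419). For the 3 genes the CTCFL-KD libraries lay below all Control libraries, and CTCFL-OE overlapped Control. CXCL1, CXCL2 and CXCL3 are close paralogs, and how reads shared between them were counted is not given in the sources used here, so the split of counts among them is uncertain.

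Among the other chemokines, CCL2 and CCL20 fell in CTCFL-KD, and CXCL16, CX3CL1 and CCL28 were not called. CCL20, the ligand of CCR6, was sparse, with 24, 42 and 25 counts in Control, then 15, 10 and 10 in CTCFL-OE, then 2, 5 and 6 in CTCFL-KD, or 1.2, 1.63 and 1.26, then 0.683, 0.522 and 0.614, then 0.18, 0.297 and 0.328 CPM. The groups did not overlap, and its log2 fold change was -1.17 ± 0.29 in CTCFL-OE (adjusted p = 0.084) and -2.27 ± 0.35 in CTCFL-KD (adjusted p = 5.7e-04). The CTCFL-OE call of CCL20 was lost by DESeq2 and without each Control library, CTCFL-OE replicate 2 or CTCFL-OE replicate 3, at an adjusted p of up to 0.345. CCL2, a monocyte attractant, had 28, 44 and 34 counts in Control (1.4, 1.71 and 1.72 CPM), then 34, 11 and 13 in CTCFL-OE (1.55, 0.574 and 0.798 CPM), then 0, 8 and 8 in CTCFL-KD (0, 0.475 and 0.437 CPM). Its change in CTCFL-KD was -2.24 ± 0.57 (adjusted p = 0.0104), and without replicate 1, the library at 0, it was -1.81 (adjusted p = 0.00648).

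CXCL16 and CX3CL1 are chemokines made as membrane proteins with a chemokine head. CXCL16 held 26.5 to 30.8 CPM in Control, 22.7 to 41.2 in CTCFL-OE and 24.9 to 33.8 in CTCFL-KD, and CX3CL1 held 42.4 to 43.5, 33.8 to 65.6 and 39.2 to 50.2. CCL28, a mucosal chemokine, was at 66.2 to 68.5 CPM in Control, at 79 to 97.7 in CTCFL-OE and at 57.6 to 88.4 in CTCFL-KD. The CTCFL-OE libraries of CCL28 were all above Control, by a log2 fold change of 0.40 ± 0.19 that did not pass (adjusted p = 0.3).

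In the IL-1 family, IL18 fell in CTCFL-KD and the other members were not called or had too few counts to be tested. IL18, a cytokine that is stored as a precursor in epithelial cells, stood at 47.1, 46.2 and 45.7 CPM in Control, at 28, 33.7 and 35.8 in CTCFL-OE and at 5.67, 4.57 and 4.21 in CTCFL-KD. The 3 groups did not overlap, and the level in CTCFL-KD was 9.66-fold lower than in Control (log2 fold change -3.27 ± 0.19, adjusted p = 2.1e-06). In CTCFL-OE the log2 fold change of IL18 was -0.51 ± 0.17 and did not pass (adjusted p = 0.16). IL1R1, the signalling receptor of IL-1, held 315 to 327 CPM in Control, 286 to 351 in CTCFL-OE and 153 to 324 in CTCFL-KD, where replicate 1 was the low library. Of the 2 genes tested in this family, DESeq2 called none in CTCFL-OE, as did edgeR, and IL18 had an unadjusted p under 0.05.

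The cytokines that signal through gp130 fell in CTCFL-KD together with 1 of their receptors. IL6 stood at 3.4, 3.18 and 3.39 CPM in Control, at 1.64, 2.71 and 5.71 in CTCFL-OE and at 0.63, 0.297 and 0.875 in CTCFL-KD, the last from 7, 5 and 16 counts. All CTCFL-KD libraries of IL6 lay below Control (log2 fold change -2.45 ± 0.50, adjusted p = 0.00328), while CTCFL-OE lay on both sides of it (adjusted p = 0.998). LIF, leukaemia inhibitory factor, had 46.1, 45.3 and 41.2 CPM in Control, then 21.9, 32.8 and 43.1 in CTCFL-OE, then 10.6, 15.5 and 15.9 in CTCFL-KD, 3.14-fold lower in CTCFL-KD (adjusted p = 6.5e-04). OSMR, the receptor of oncostatin M, had 61.9, 64.9 and 63.2 CPM in Control, then 34.1, 60.7 and 71.8 in CTCFL-OE, then 17.6, 26.5 and 27.2 in CTCFL-KD, 2.66-fold lower in CTCFL-KD (adjusted p = 0.00239).

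IL11 was near the limit of the test. It had 30, 44 and 18 counts in Control (1.5, 1.71 and 0.91 CPM), then 5, 13 and 7 in CTCFL-OE (0.228, 0.678 and 0.429 CPM), then 10, 5 and 8 in CTCFL-KD (0.9, 0.297 and 0.437 CPM). Its log2 fold change in CTCFL-KD was -1.42 ± 0.47 (adjusted p = 0.0349). With the replicate block, which treats same-numbered libraries as pairs although this pairing is not established, it was -1.37 and IL11 was not called (adjusted p = 0.0504). The CTCFL-KD call of IL11 was also lost without Control replicate 1, Control replicate 2, CTCFL-KD replicate 2 or CTCFL-KD replicate 3. In CTCFL-OE the log2 fold change of IL11 was -1.64 ± 0.46 and missed the threshold (adjusted p = 0.116), while 5 of the 8 other settings that tested it called it, among them DESeq2, edgeR on the 2 groups alone and the fits with the length and GC trend removed. IL11 was also the 1 gene of the 7 with an unadjusted p under 0.05 there. The shared receptor chain IL6ST (gp130) and the specific chains IL6R and LIFR were not called in either comparison. IL6ST held 97.3 to 115 CPM in Control, 59.5 to 108 in CTCFL-OE and 45.7 to 127 in CTCFL-KD. LIFR held 34.8 to 41.7, 31.2 to 51.4 and 18.8 to 52.8, and IL6R 14 to 15, 11.5 to 15.7 and 7.92 to 12.7. In IL6ST and LIFR the lowest CTCFL-KD library was replicate 1 and the other 2 lay near or above Control.

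Of the remaining interleukins and receptors, IL12A rose, and IL7R and IL32 fell, in CTCFL-KD. IL12A encodes p35, the subunit that pairs with p40 in interleukin-12 and with EBI3 in interleukin-35. It stood at 2.2, 2.48 and 1.37 CPM in Control (44, 64 and 27 counts), at 5.51, 6.1 and 6.75 in CTCFL-OE and at 21.6, 18.9 and 22.8 in CTCFL-KD. The groups rose in steps without overlap, 3.01-fold in CTCFL-OE (log2 fold change 1.59 ± 0.23, adjusted p = 0.012) and 10.4-fold in CTCFL-KD (log2 fold change 3.37 ± 0.24, adjusted p = 5.4e-06). Both calls of IL12A held without each library of the groups compared and under each alternative setting.

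IL7R, the specific chain of the interleukin-7 receptor, stood at 9.65, 8.92 and 9.15 CPM in Control, at 1.46, 1.3 and 4.91 in CTCFL-OE and at 0.45, 0.772 and 0.984 in CTCFL-KD. The groups did not overlap, with CTCFL-OE replicate 3 closest to Control, and the counts were 32, 25 and 80 in CTCFL-OE against 5, 13 and 18 in CTCFL-KD. Its log2 fold change was -1.88 ± 0.43 in CTCFL-OE (adjusted p = 0.0662) and -3.59 ± 0.50 in CTCFL-KD (adjusted p = 3.6e-04). The CTCFL-OE call of IL7R was lost without any 1 Control library or CTCFL-OE replicate 2 (adjusted p up to 0.262), and over the libraries left out its log2 fold change ran from -2.74, without CTCFL-OE replicate 3, to -1.57.

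IL32, a cytokine known to induce TNF, showed the lowest log2 fold change of the list in CTCFL-KD. Its level was 12.9, 12.3 and 13.8 CPM in Control, then 10.7, 10.4 and 12.8 in CTCFL-OE, then 0.81, 0.297 and 0.492 in CTCFL-KD, from 9, 5 and 9 counts. CTCFL-OE overlapped Control, and CTCFL-KD was 25.3-fold lower (log2 fold change -4.66 ± 0.29, adjusted p = 3.0e-06). IL4R, shared by interleukin-4 and interleukin-13, was at 5.66 to 7.58 CPM in Control, 3.73 to 8.84 in CTCFL-OE and 2.97 to 4.32 in CTCFL-KD, with a log2 fold change of -0.83 ± 0.31 in CTCFL-KD that did not pass (adjusted p = 0.052). With the length and GC trend removed IL4R was called, at -1.01 (adjusted p = 0.0102), and also with the replicate block added. IL15, a growth factor of natural killer cells, was at 2.83 to 3.9, 3.55 to 3.86 and 2.35 to 3.78 CPM and was not called.

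TNF and CSF1 both fell in CTCFL-KD. TNF, the cytokine that starts canonical NF-kB signalling, stood at 7.35, 6.75 and 7.38 CPM in Control, at 2.23, 4.7 and 9.26 in CTCFL-OE and at 0.45, 0.534 and 0.711 in CTCFL-KD, from 5, 9 and 13 counts. CTCFL-OE lay on both sides of Control, and CTCFL-KD was 12.3-fold lower (log2 fold change -3.61 ± 0.50, adjusted p = 3.4e-04). CSF1, macrophage colony-stimulating factor, was the 1 gene of the list called in opposite directions. It stood at 8.55, 9.5 and 8.39 CPM in Control, at 9.93, 24.3 and 25.7 in CTCFL-OE and at 1.98, 1.6 and 1.42 in CTCFL-KD. CTCFL-OE replicate 1 was just above the highest Control library, while the other 2 were well above it. The log2 fold change of CSF1 was 1.17 ± 0.31 in CTCFL-OE (adjusted p = 0.0939) and -2.42 ± 0.36 in CTCFL-KD (adjusted p = 5.0e-04). Its CTCFL-OE call was lost without any 1 Control library, CTCFL-OE replicate 2 or CTCFL-OE replicate 3, at an adjusted p of up to 0.369. The plot of single libraries shows the 6 genes called in both comparisons with 6 further genes of the list.

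**Figure D3:**
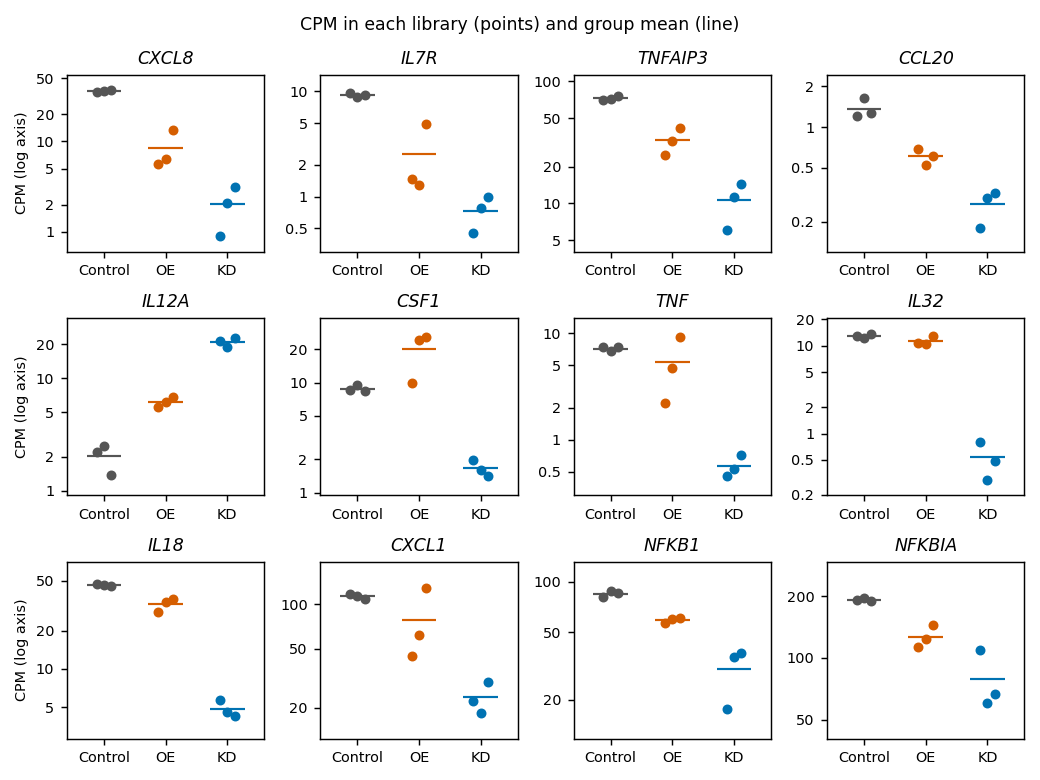
CPM of 12 genes in each library (points, log axis, a separate axis range for each gene) with the group mean (line), for Control, CTCFL-OE (OE) and CTCFL-KD (KD). IL12A rises from Control over OE to KD, CSF1 is high in OE and low in KD, and the 3 KD libraries lie below all Control libraries for the other 10 genes.

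Within CTCFL-OE, the spread of the listed genes followed the library. Replicate 3 was the highest of the 3 CTCFL-OE libraries for 27 of the 35 genes tested (77.1%), against 31.8% of all genes tested, and replicate 1 was the lowest for 24 (68.6%), against 40.3%. In TNF, CXCL1 and IL6, replicate 3 was above all Control libraries and the other 2 were below them. Replicate 3 also had the highest count of CTCFL, 72, and the highest share of mitochondrial reads, 14.9%, and the part of either was not tested. Within Control no library held more than 13 of the 35 highest values (37.1%), and within CTCFL-KD replicate 3 was highest for 18 and replicate 1 lowest for 18 (51.4% each), against 28.5% and 46.2% of all genes tested.

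Tested directly, CTCFL-KD and CTCFL-OE differed for 17 genes of the list, 16 lower and 1 higher in CTCFL-KD (log2 fold change beyond 1 and adjusted p under 0.05), with 6.42% of all genes tested lower and 10.6% higher by the same rule. The largest differences were those of IL32 (-4.46 ± 0.29, adjusted p = 7.4e-06), CSF1 (-3.59 ± 0.36, adjusted p = 6.9e-05), TNF (-3.19 ± 0.50, adjusted p = 0.00106) and IL18 (-2.76 ± 0.19, adjusted p = 8.0e-06) on the log2 scale. Of the 4 genes that fell in both groups, CXCL8 was lower in CTCFL-KD than in CTCFL-OE, 3.99-fold (adjusted p = 0.00459), IL7R 3.27-fold (adjusted p = 0.0325) and TNFAIP3 3.10-fold (adjusted p = 0.00233). CCL20 did not pass (-1.11 ± 0.38, adjusted p = 0.0524). IL12A was higher in CTCFL-KD than in CTCFL-OE by 1.79 ± 0.22 (adjusted p = 2.2e-04). All 4 tested ELR CXC chemokines were among the 17, as were IL6, LIF, OSMR, TNFAIP2, NFKB2 and BIRC3. NFKB1, RELB and NFKBIA had adjusted p of 0.017, 0.0354 and 0.045 with log2 differences of -0.96, -0.63 and -0.69, under the fold threshold. The calls of IL7R and CXCL3 in this comparison were lost without CTCFL-OE replicate 3 or CTCFL-KD replicate 2, that of CXCL3 also without CTCFL-OE replicate 2 and that of IL7R without CTCFL-KD replicate 1, and those of LIF and OSMR were lost without CTCFL-OE replicate 3. The log2 difference of IL7R, -1.71 as reported, was -0.86 without CTCFL-OE replicate 3.

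Further genes of the NF-kB pathway were read in the same fit. Of 36 such genes (adaptors, kinases, ubiquitin enzymes and regulators), 35 were tested, and 4 fell and 1 rose in CTCFL-KD, with a median log2 fold change of -0.47. Over all genes tested 7.94% were lower and 15.3% higher, with a median of 0.08, so the number lower is near the background and the number higher is under it. MALT1, the paracaspase of the CARD-BCL10-MALT1 complex, was at 55.1, 59.5 and 59.9 CPM in Control, then 30.4, 23.4 and 22.8 in CTCFL-OE, then 12, 20.5 and 23.4 in CTCFL-KD, and it was the 1 gene of these called in CTCFL-OE (log2 fold change -1.19 ± 0.24, adjusted p = 0.0447; -1.64 ± 0.24 and 4.9e-04 in CTCFL-KD). CARD10, a scaffold of the same complex, fell by 1.55 on the log2 scale in CTCFL-KD (adjusted p = 4.6e-05), and BCL3, a nuclear IkB-like coactivator, fell by 1.41 (adjusted p = 1.8e-04). CHUK, which encodes the kinase IKK-alpha, fell by 1.01 (adjusted p = 0.00836), and by 0.75, under the fold threshold, without CTCFL-KD replicate 1. The CTCFL-OE call of MALT1 was lost without any 1 Control library, CTCFL-OE replicate 2 or CTCFL-OE replicate 3 (adjusted p up to 0.217). TRAF1, an adaptor of TNF receptors, rose in CTCFL-KD from 0.8, 0.543 and 0.657 CPM to 3.24, 4.69 and 3.55 (log2 fold change 2.53 ± 0.29, adjusted p = 1.0e-04).

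Further receptors of cytokines and chemokines were read as well. Of 29 such genes, 14 had enough counts to be tested, and 5 rose and 1 fell in CTCFL-KD, with a median log2 fold change of 0.67, beside 15.3% higher, 7.94% lower and a median of 0.08 over all genes tested. IL11RA, the specific receptor of IL11, rose from 2.35, 2.52 and 1.77 CPM in Control to 21.3, 11.7 and 11.5 in CTCFL-KD (log2 fold change 2.73 ± 0.28, adjusted p = 5.8e-05). CXCR4, the receptor of CXCL12, was at 1.15, 0.892 and 0.303 CPM in Control and at 2.43, 2.49 and 6.12 in CTCFL-KD (log2 fold change 2.24 ± 0.48, adjusted p = 0.00437, and 1.63 without CTCFL-KD replicate 3), and ACKR3, which also binds CXCL12, was at 1.15, 1.28 and 1.16 and at 3.33, 4.1 and 6.84 (log2 fold change 1.99 ± 0.45, adjusted p = 0.00597). IL20RA rose by a log2 fold change of 1.90 ± 0.22 (adjusted p = 1.3e-04) and IL10RB by 1.61 ± 0.33 (adjusted p = 0.00354). CSF1R, the receptor of CSF1, named after its values were seen, had 12, 21 and 11 counts in Control, 7, 16 and 17 in CTCFL-OE and 0 in each CTCFL-KD library, at least 3.22-fold lower in CTCFL-KD than in Control when each of these is set at 3 counts (adjusted p = 0.00225). In CTCFL-OE edgeR called none of the 14 and DESeq2 called 1, ACKR3, with 4 at an unadjusted p under 0.05 (IL1RAP, IL15RA, IL11RA and ACKR3).

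Of 21 genes of JAK-STAT signalling, through which most of the listed interleukin receptors act, 20 were tested and 1 was called higher in CTCFL-KD, where 15.3% of all genes tested were. This was JAK3, at 2.8, 2.95 and 2.78 CPM in Control and 9.73, 3.68 and 4.32 in CTCFL-KD, with replicate 1 far above the other 2 (log2 fold change 1.03 ± 0.33, adjusted p = 0.0326). Without CTCFL-KD replicate 1 the log2 fold change of JAK3 was 0.50 and it was not called, nor was it without any 1 Control library. In CTCFL-OE none of the 20 was called by edgeR or by DESeq2, and 6 had an unadjusted p under 0.05.

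Set beside the promoter windows, 11 of the 17 genes that fell in CTCFL-KD and had a window held a kB match (64.7%), and 5 of the other 14 genes with a window held one (35.7%). IL12A, which rose, is among the 5, as are IL6ST, IL4R and REL, which were not called, and CXCL5, which was not tested. No test was made of these shares, since a gene can have several windows.

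A total of 18 of the 40 genes overlap another annotated gene, most of them on the opposite strand (among them IL12A with IL12A-AS1, IL6 with STEAP1B, OSMR with RICTOR and TNFAIP3 with WAKMAR2). The strand setting of the counting is not given in the sources used here, so reads of such a pair may not be separated. The number called under each setting is plotted beside the values as reported.

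**Figure D4:**
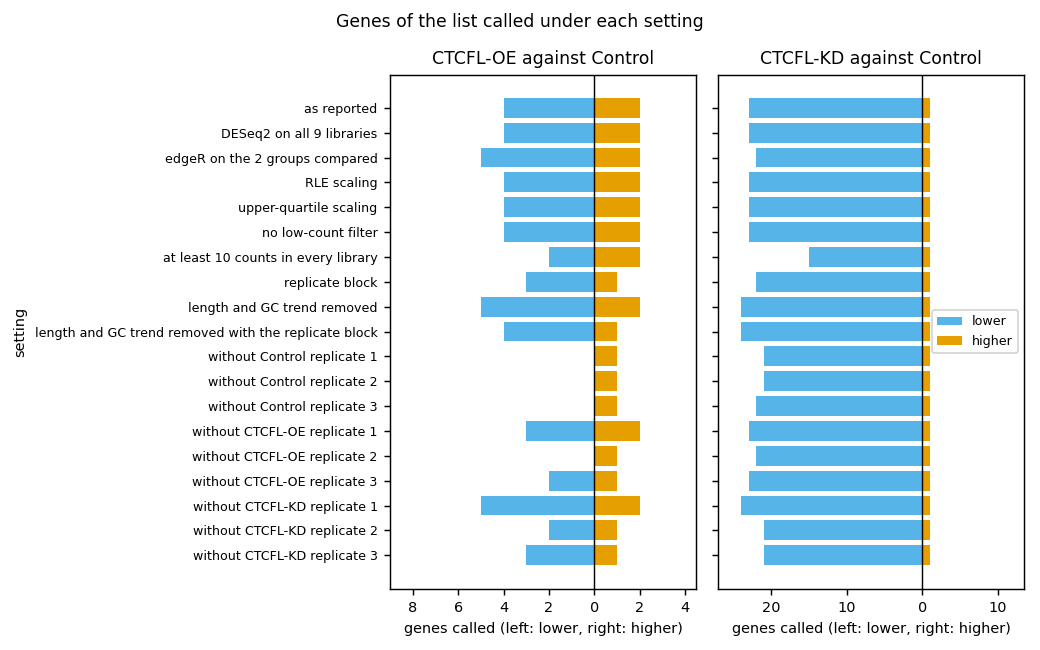
Number of listed genes called lower (bars to the left) and higher (bars to the right) in CTCFL-OE (left panel) and CTCFL-KD (right panel) against Control under each setting of the analysis. In CTCFL-KD the total stays between 22 and 25 except where 10 counts are required in every library (16 of 27 tested), and in CTCFL-OE it is 1 without any 1 Control library or CTCFL-OE replicate 2.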

How the data were processed

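RNA-seq of 9 OVCAR3 libraries was analysed. The authors used Trimmomatic for trimming, STAR for alignment to GRCh38 and featureCounts (Rsubread v1.32.4) for counting per gene, and deposited the raw counts. The submitters' processing notes also name kallisto. Annotation release, strand setting and treatment of multi-mapping reads are not given in the sources used here. Gene names and lengths came from GENCODE 44, which named 60419 of 60660 identifiers.

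Counts were tested with edgeR 4.0.16 (R 4.3.3): filterByExpr (17794 genes kept), TMM scaling and a robust quasi-likelihood fit on all 9 libraries with condition as the only factor, Benjamini-Hochberg over all genes tested. Calls used the study's thresholds. DESeq2 1.42.0 and other settings were alternatives. CPM are TMM-scaled.

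The listed genes and the further gene lists were chosen with earlier results of these data known. Full values are given for genes called in either comparison and for IL7R, IL12A and CXCL8. From each further list the called genes with at least 1 CPM in a group and the largest fold changes, up to 4, are given, and the others among few calls were named after their values were seen. One further result is not reported here.

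Same-numbered Control and CTCFL-KD libraries deviated together (correlations 0.386, 0.218 and 0.271, and 0.15, 0.152 and 0.129 with the length and GC trend removed), so the replicate block treats them as pairs. For Control and CTCFL-OE the values were -0.0425, 0.226 and -0.0453, and 0.00144, 0.27 and -0.0404 with the trend removed. Those of CTCFL-OE and CTCFL-KD were 0.00266, 0.0841 and 0.0185, and 0.0878, 0.174 and 0.0689. Trend-removed values thus overlapped between the pairs of groups. Libraries of different number were not compared, so the pairing is not established.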

Additional observations from a re-analysis of the deposited data

Results flagged for a closer look

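CSF1 was the only listed gene called in both comparisons with Control in opposite directions. The direct comparison of CTCFL-KD with CTCFL-OE, which adds no support since it is the difference of these called effects, gave a log2 fold change of -3.59 ± 0.36 (edgeR's quasi-likelihood test, adjusted p = 6.9e-05), with each of the 3 CTCFL-KD libraries below and each of the 3 CTCFL-OE libraries above all Control libraries. Its call in CTCFL-OE was lost without CTCFL-OE replicate 2, CTCFL-OE replicate 3 or any 1 Control library, and with the replicate block (adjusted p = 0.13).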

How the results depend on the processing

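Of the 24 genes called in CTCFL-KD against Control, 22 were called without each Control or CTCFL-KD library in turn, the exceptions being IL11 and NFKBIE, and 22 under each of the other settings that tested them, where IL11 was lost with the replicate block and NFKBIE in edgeR on 2 groups. The number called was 22 to 25 with a library left out, 23 with the replicate block and 16 where 10 counts were required in every library, which tests 27 of the listed genes. In CTCFL-OE against Control it was 6, and 1 to 7 with a library left out (1 without Control replicate 1, 2 or 3 or CTCFL-OE replicate 2, 3 without CTCFL-OE replicate 3 or CTCFL-KD replicate 2). With the replicate block, for numbers that are not shown to pair these groups, it was 4, with CCL20 and CSF1 not called. The cause was not tested. CTCFL-KD against CTCFL-OE gave 17, with 13 to 18 when a library was left out, 12 to 19 under the other settings and 18 with the replicate block. No listed gene that was called changed direction. Over all genes, calls in CTCFL-OE were 368, and 44 to 1184 with a library left out, 835 in edgeR on 2 groups, 826 without the low-count filter, 644 with the length and GC trend removed and 587 with this and the replicate block. At 3 libraries per group and low counts, changes in genes such as IL11, CCL2 and CCL20 are estimated with wide errors, and p-values cover the spread between these cultures.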
